A study of Macaca mulatta with 51 samples.

Results

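The Toll-like receptors TLR1 to TLR8 and the coreceptors CD14 and LY96 were followed in subcutaneous adipose tissue (AT) and gastrocnemius skeletal muscle (SM) of rhesus macaques given FGF21. The genes were chosen by symbol in the deposited count table, which held all 10 of them among 16033 genes. The table gives each gene by its human symbol and identifier: TLR1 (ENSG00000174125), TLR2 (ENSG00000137462), TLR3 (ENSG00000164342), TLR4 (ENSG00000136869), TLR5 (ENSG00000187554), TLR6 (ENSG00000174130), TLR7 (ENSG00000196664), TLR8 (ENSG00000101916), CD14 (ENSG00000170458) and LY96 (ENSG00000154589). All 10 animals were obese but not diabetic, and 5 of them were male and 5 were females whose ovaries had been removed. They were between 11 and 22 years old and had eaten high-fat food for 2 years or longer. Punch biopsies were taken before treatment (pre-treatment), after 12 weeks of daily subcutaneous native human FGF21 in doses rising from 10 ug/kg/day to 1000 ug/kg/day (post-treatment), and after a further 16 weeks without the drug (washout). A single animal was held below the top dose. No untreated animals were among the samples, so the effect of the drug, of weight change and of time cannot be told apart here.

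Toll-like receptors (TLRs) are membrane proteins of innate immune cells and some other cells that bind molecules typical of microbes or of damaged tissue. TLR1, TLR2, TLR4, TLR5 and TLR6 act at the cell surface, and TLR3, TLR7 and TLR8 act in endosomes, where they bind RNA. CD14 delivers lipopolysaccharide to TLR4, and LY96 (MD-2) is the protein bound to TLR4 that holds the lipid. In AT these receptors are found on resident macrophages and, for some members, on adipocytes and stromal cells, and they are studied there for their part in the inflammation of obesity.

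Polyadenylated RNA was sequenced from 27 AT libraries of 10 animals (10 pre-treatment, 9 post-treatment and 8 washout) and 21 SM libraries of 8 animals (6, 8 and 7). Total counts per library ranged from 14455195 to 23940980. Levels are given as CPM, a gene's counts relative to the total of its library, scaled with TMM factors within each tissue. They are not divided by transcript length, so levels are compared between samples of 1 gene and not between genes. Differentially expressed (DE) genes had to pass an adjusted p of 0.05 and an absolute log2 fold change of 0.26, in edgeR's quasi-likelihood test with time point and animal in the model. All 10 members passed the filter on low counts in both tissues. The tissues carried their own markers: 8 muscle fibre genes summed to between 47642 and 246765 CPM in SM and to at most 439 CPM in AT, while 5 adipocyte genes summed to at least 9843 CPM in AT and to at most 1813 CPM in SM. A biopsy is a mixture of cells, and more cells of a type cannot be told apart from more RNA per cell.

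In AT, 3 of the 10 members were DE between pre- and post-treatment, against 15.5% of all 13367 genes tested. TLR3, the endosomal receptor for double-stranded RNA, fell (8.49% of all genes were DE and lower), and TLR8 and LY96 rose (6.98% were DE and higher). From post-treatment to washout, 7 members were DE, against 35.4% of all genes, and each of the 7 was lower, as were 17.8% of all genes: TLR1, TLR2, TLR4, TLR5, TLR8, CD14 and LY96. Between pre-treatment and washout, TLR3 and TLR6 were DE and lower, 2 of 10 members against 20.5% of all genes DE and 7.96% DE and lower. The median log2 fold change of the 10 members was 0.73 post-treatment, -1.02 from post-treatment to washout and -0.55 from pre-treatment to washout, where the medians of all genes were 0.03, -0.00 and -0.02. These comparisons share libraries with each other, so their values are not independent.

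**Figure D1:**
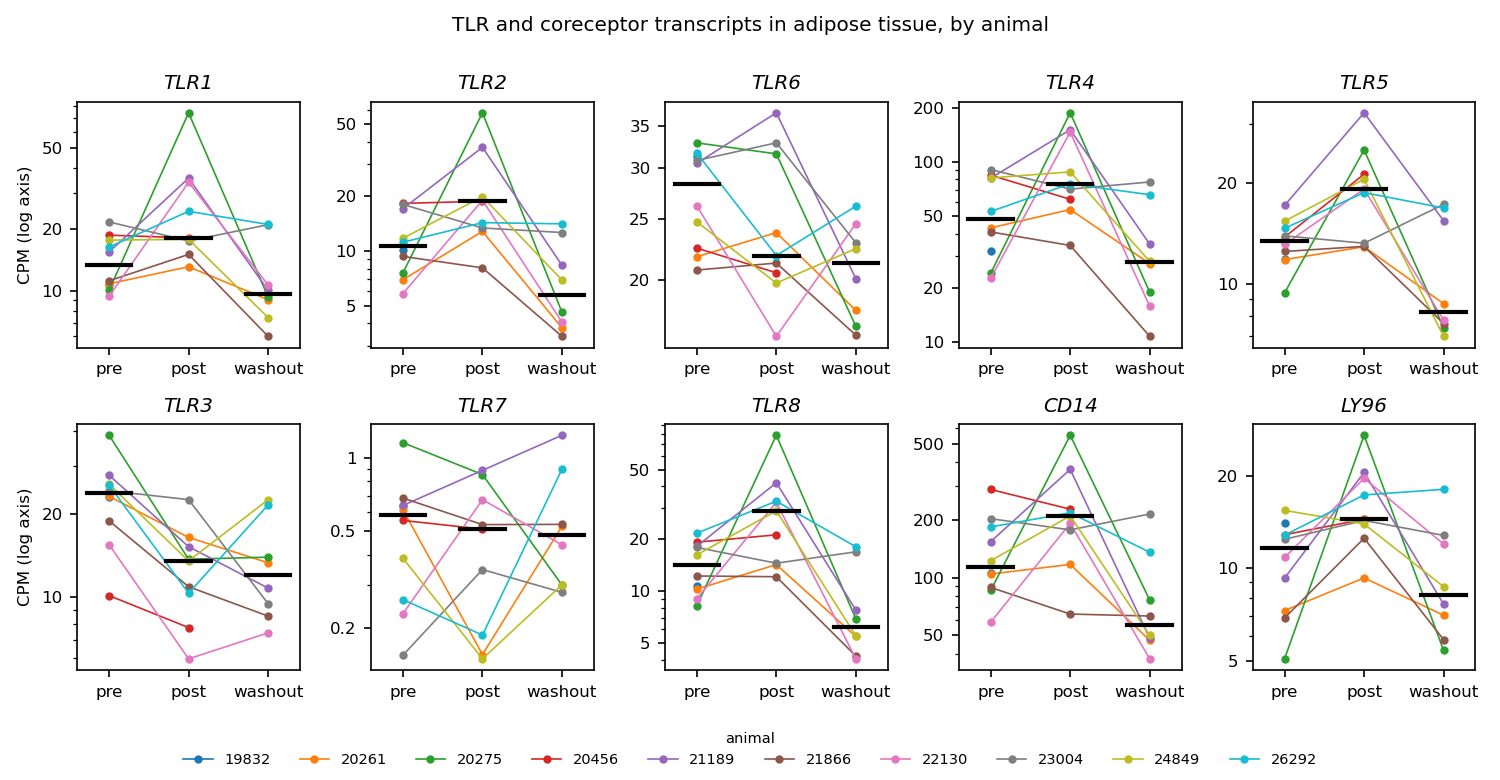
Levels of the 10 members in AT, in CPM on a log axis, at pre-treatment (pre), post-treatment (post) and washout, with 1 panel per gene, 1 coloured line per animal and a black bar at the median of each time. TLR3 was lower post-treatment in all 9 animals with both libraries, and animal 20275 was the highest post-treatment library for TLR1, TLR2, TLR4, TLR8, CD14 and LY96.

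TLR3 lay at 10.1 CPM in the lowest, 23.8 CPM in the median and 38.7 CPM in the highest of 10 pre-treatment AT libraries. Post-treatment it lay at 5.96, 13.5 and 22.6 CPM over 9 libraries, and at washout at 7.41, 12.05 and 22.6 CPM over 8 libraries. The ranges overlapped, with the pre-treatment library of animal 20275 the highest of all and its post-treatment library near the median of that time. Within animals the order was uniform: TLR3 was lower post-treatment in 9 of 9 animals and lower at washout than pre-treatment in 8 of 8. It fell by 0.84 on the log2 scale post-treatment (SE 0.18, adjusted p = 0.00780) and by 0.89 at washout compared to pre-treatment (SE 0.19, adjusted p = 0.00191). From post-treatment to washout the estimate was -0.06 (95% confidence interval -0.46 to 0.35, adjusted p = 0.841), with 4 of 8 animals higher and 4 lower. The AT libraries carry sample identifiers of 3 number series, of which the labels give only the numbers, and in the last series alone TLR3 was lower post-treatment in 6 of 6 animals and lower at washout than pre-treatment in 3 of 3.

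TLR8, an endosomal receptor for single-stranded RNA, ran the other way. It lay at 8.24, 14.2 and 21.5 CPM (lowest, median, highest) pre-treatment, at 12.1, 28.9 and 78.8 CPM post-treatment, and at 4.06, 6.21 and 18.0 CPM at washout. At post-treatment 5 of 9 libraries were above every pre-treatment library, and at washout 6 of 8 libraries were below every pre-treatment library and 6 of 8 below every post-treatment library. The post-treatment rise was 0.97 on the log2 scale (SE 0.32, adjusted p = 0.0433), with 7 of 9 animals higher. This call did not hold without the post-treatment library of animal 20275 (log2 fold change 0.70, adjusted p = 0.0751), nor in the last identifier series alone (1.02, adjusted p = 0.0788), and it held in 9 of 23 alternative analyses. It was also lost with limma, the test of the study (0.57, adjusted p = 0.102), without the pre-treatment library of animal 20275 (0.77, adjusted p = 0.0976) and without any 1 of animals 20261, 20275, 21189, 21866, 22130, 24849 or 26292. Up to washout TLR8 fell by 1.87 (SE 0.34, adjusted p = 4.84e-04), and 7 of 8 animals were lower, animal 23004 being the exception. At washout compared to pre-treatment it was lower in 8 of 8 animals, at a log2 fold change of -0.90 (SE 0.33) that missed the threshold (adjusted p = 0.0632). TLR8 passed there with limma (-0.97, adjusted p = 0.00636) and DESeq2 (-0.91, adjusted p = 0.0176), and in 8 of 23 alternative analyses.

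TLR7, the close relative of TLR8 that also binds single-stranded RNA, was near the limit of detection. It had 3 to 23 counts per AT library, which is at most 1.24 CPM. Its changes were -0.12, 0.28 and 0.15 on the log2 scale in the 3 comparisons, with 95% confidence intervals of -0.86 to 0.61, -0.48 to 1.04 and -0.60 to 0.91, and none was DE. Changes of a size within these intervals are not excluded by these libraries.

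TLR2 recognizes bacterial lipoproteins as a dimer with TLR1 or TLR6. TLR2 lay at 5.83, 10.7 and 18.3 CPM in the lowest, median and highest pre-treatment AT library, at 8.08, 18.8 and 57.7 CPM post-treatment and at 3.39, 5.76 and 14.1 CPM at washout. TLR1 lay at 9.43, 13.4 and 21.8 CPM, at 13.1, 18.2 and 74.3 CPM and at 6.01, 9.72 and 21.2 CPM at the same times. In both genes the highest post-treatment library was that of animal 20275, and 5 (TLR2) and 4 (TLR1) of 9 post-treatment libraries stood above every pre-treatment library. The post-treatment changes of 0.87 for TLR2 (SE 0.31, adjusted p = 0.0579) and 0.81 for TLR1 (SE 0.29, adjusted p = 0.0602) missed the threshold, with 7 of 9 animals higher in each. Without the post-treatment library of animal 20275 they were 0.56 and 0.53, and with limma, the test of the study, 0.48 and 0.45. To washout TLR2 fell by 1.58 (SE 0.33, adjusted p = 0.00135), in 8 of 8 animals, the smallest change being -0.02 in animal 26292. TLR1 fell by 1.197 (SE 0.30, adjusted p = 0.00519), in 7 of 8.

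TLR6, the other partner of TLR2, did not share this course. It lay at 20.7, 28.4 and 32.9 CPM pre-treatment, at 16.3, 21.9 and 36.7 CPM post-treatment and at 16.4, 21.3 and 26.1 CPM at washout. Its post-treatment change was -0.11 (95% confidence interval -0.37 to 0.14, adjusted p = 0.540) with 4 of 9 animals higher. TLR6 was lower at washout than pre-treatment in 8 of 8 animals, by 0.37 on the log2 scale (95% confidence interval -0.65 to -0.10, adjusted p = 0.0454). That call held in 11 of 23 alternative analyses, and was lost without the pre-treatment library of animal 20275 (adjusted p = 0.0832), without the washout library of animal 23004 (adjusted p = 0.0848) and without any 1 of animals 20261, 20275, 20456, 21189, 21866, 23004 or 26292. TLR1 and TLR6 are closely related in sequence, as is TLR10 (0.755 CPM on average pre-treatment), and the tool that assigned reads to genes is not given in the sources used here, so reads may have been divided between them.

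TLR4 binds lipopolysaccharide together with LY96, to which CD14 hands it. TLR4 lay at 22.7, 48.2 and 90.8 CPM pre-treatment, at 34.5, 75.7 and 187 CPM post-treatment and at 10.8, 27.7 and 77.5 CPM at washout. CD14 lay at 58.5, 114 and 288 CPM, at 64.5, 210 and 553 CPM and at 37.7, 56.5 and 215 CPM. LY96 lay at 5.07, 11.7 and 15.5 CPM, at 9.32, 14.5 and 27.2 CPM and at 5.40, 8.19 and 18.1 CPM. Animal 20275 went from 24.2 to 187 and back to 19.0 CPM in TLR4, from 85.7 to 553 and back to 76.3 CPM in CD14, and from 5.07 to 27.2 and back to 5.40 CPM in LY96, while animal 23004 stayed between 70.7 and 90.8 CPM in TLR4, between 177 and 215 CPM in CD14 and between 12.4 and 14.3 CPM in LY96.

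Of this complex only LY96 was DE post-treatment, with a rise of 0.72 on the log2 scale (SE 0.21, adjusted p = 0.0305) in 8 of 9 animals. The LY96 call held without the post-treatment library of animal 20275 (0.50, adjusted p = 0.0413), and did not hold without its pre-treatment library (0.58, adjusted p = 0.0731) or without animals 20275, 21189, 21866 or 22130. The changes of TLR4 (0.77, SE 0.36, adjusted p = 0.143) and CD14 (0.74, SE 0.31, adjusted p = 0.104) were not DE, and each was higher in 6 of 9 animals. Without the post-treatment library of animal 20275 they were 0.49 and 0.51, and with limma 0.37 for both, where LY96 was 0.48 (adjusted p = 0.0177). To washout all 3 fell. The log2 fold change was -1.62 for TLR4 (SE 0.39, adjusted p = 0.00353), -1.496 for CD14 (SE 0.34, adjusted p = 0.00241) and -0.83 for LY96 (SE 0.22, adjusted p = 0.00710), each in 7 of 8 animals. Against pre-treatment, LY96 at washout stood at -0.11 (95% confidence interval -0.58 to 0.35), TLR4 at -0.85 (-1.64 to -0.06) and CD14 at -0.75 (-1.44 to -0.07), none of them DE in edgeR's test. With limma, TLR4 (-0.87, adjusted p = 0.0159) and CD14 (-0.84, adjusted p = 0.00964) passed, and LY96 (-0.10, adjusted p = 0.631) did not. With DESeq2, TLR4 (adjusted p = 0.0892) and CD14 (adjusted p = 0.0507) did not pass. Each of TLR4 and CD14 passed in 3 of 23 alternative analyses.

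TLR5, the receptor for bacterial flagellin, lay at 9.39, 13.4 and 17.1 CPM pre-treatment, at 12.9, 19.1 and 32.3 CPM post-treatment and at 6.97, 8.26 and 17.2 CPM at washout. At post-treatment 6 of 9 libraries were above every pre-treatment library and 8 of 9 animals were higher, with a change of 0.51 (SE 0.17) that missed the threshold (adjusted p = 0.0514). To washout TLR5 fell by 0.85 (SE 0.19, adjusted p = 0.00188) in 7 of 8 animals.

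**Figure D2:**
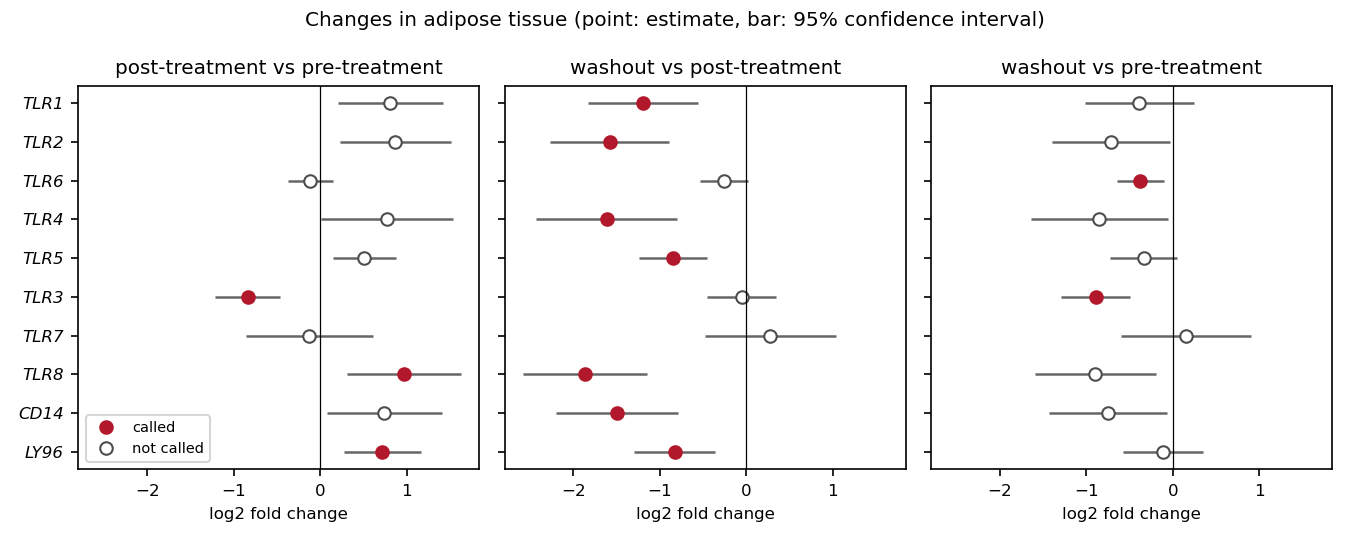
Log2 fold changes of the 10 members in AT in the 3 comparisons, as points with 95% confidence intervals. Filled red points are DE. From post-treatment to washout the whole intervals of 7 members lie left of 0, with estimates from -0.83 for LY96 to -1.87 for TLR8, while the intervals of TLR3, TLR6 and TLR7 span 0.

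The 7 members that fell at washout also had like profiles over single libraries, part of which follows from that shared fall. Over the 27 AT libraries, Pearson's r of log2 CPM between any pair of TLR1, TLR2, TLR4, TLR5, TLR8, CD14 and LY96 ran from 0.70 to 0.94 over 21 pairs, with a median of 0.88. The r of TLR3 with these 7 ran from -0.22 to 0.03, that of TLR6 from 0.33 to 0.46, and that of TLR7 with the other 9 members from -0.05 to 0.12. TLR3 and TLR6 had an r of 0.63 with each other. With the mean of each time removed, the 21 pairs had r from 0.57 to 0.91 (median 0.81), TLR3 with the 7 from -0.12 to 0.11, TLR6 with the 7 from 0.26 to 0.44, and TLR3 with TLR6 0.58. Libraries of 1 animal and of 1 time share their source, so these values are descriptive.

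Over the same libraries, the genes outside the list with the profiles most like those of the members were found among the 12130 tested genes whose average was 1 CPM or more. For TLR8 they were GPNMB and TBXAS1 (r = 0.96 each), and for CD14 TBXAS1 and PLD3 (0.95 each). TLR4 was closest to CYBB, the catalytic subunit of the phagocyte NADPH oxidase, and HAVCR2 (0.97 each), TLR2 to MFSD1 and NCKAP1L (0.96 each), and TLR1 to SMPDL3A (0.96) and CMTM6 (0.95). TLR5 was closest to the macrophage marker AIF1 (0.91) and DIRAS2 (0.90), and LY96 to AP1S2 and RNF13 (0.88 each). TLR3 was closest to RNF217 (0.86) and ITPRIPL2 (0.83), TLR6 to AKAP10 (0.79) and EFR3A (0.73), and TLR7 to KDM4D (0.63) and GPR171 (0.62). Of all these genes only TBXAS1, thromboxane synthase, was among the 2 closest of more than 1 member, TLR8 and CD14.

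Markers of macrophages and monocytes moved with these 7 members. The list held 14 genes, CD68, CD163, CSF1R, MRC1, MSR1, AIF1, C1QA, C1QB, C1QC, ITGAM, LYZ, MARCO, ADGRE1 and CD86, all of them tested and none at 0 in a whole group. Their summed level in AT ran from 811 to 3351 CPM pre-treatment (median 1996), from 1522 to 9292 CPM post-treatment (median 4004) and from 579 to 3479 CPM at washout (median 1009). All 14 had a higher estimate post-treatment, with a median log2 fold change of 0.93, and 5 were DE: C1QC (0.90, adjusted p = 0.0218), C1QB (0.96, 0.0238) and C1QA (0.73, 0.0271), subunits of complement C1q, with AIF1 and LYZ. At the end of the washout all 14 were DE and lower than post-treatment, against 17.8% of all genes, with a median of -1.76. Compared to pre-treatment, all 14 had a lower estimate at washout, with a median of -0.81. Of them, 6 were DE and lower, against 7.96% of all genes. Whether they account for any change of the receptors was not tested.

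**Figure D3:**
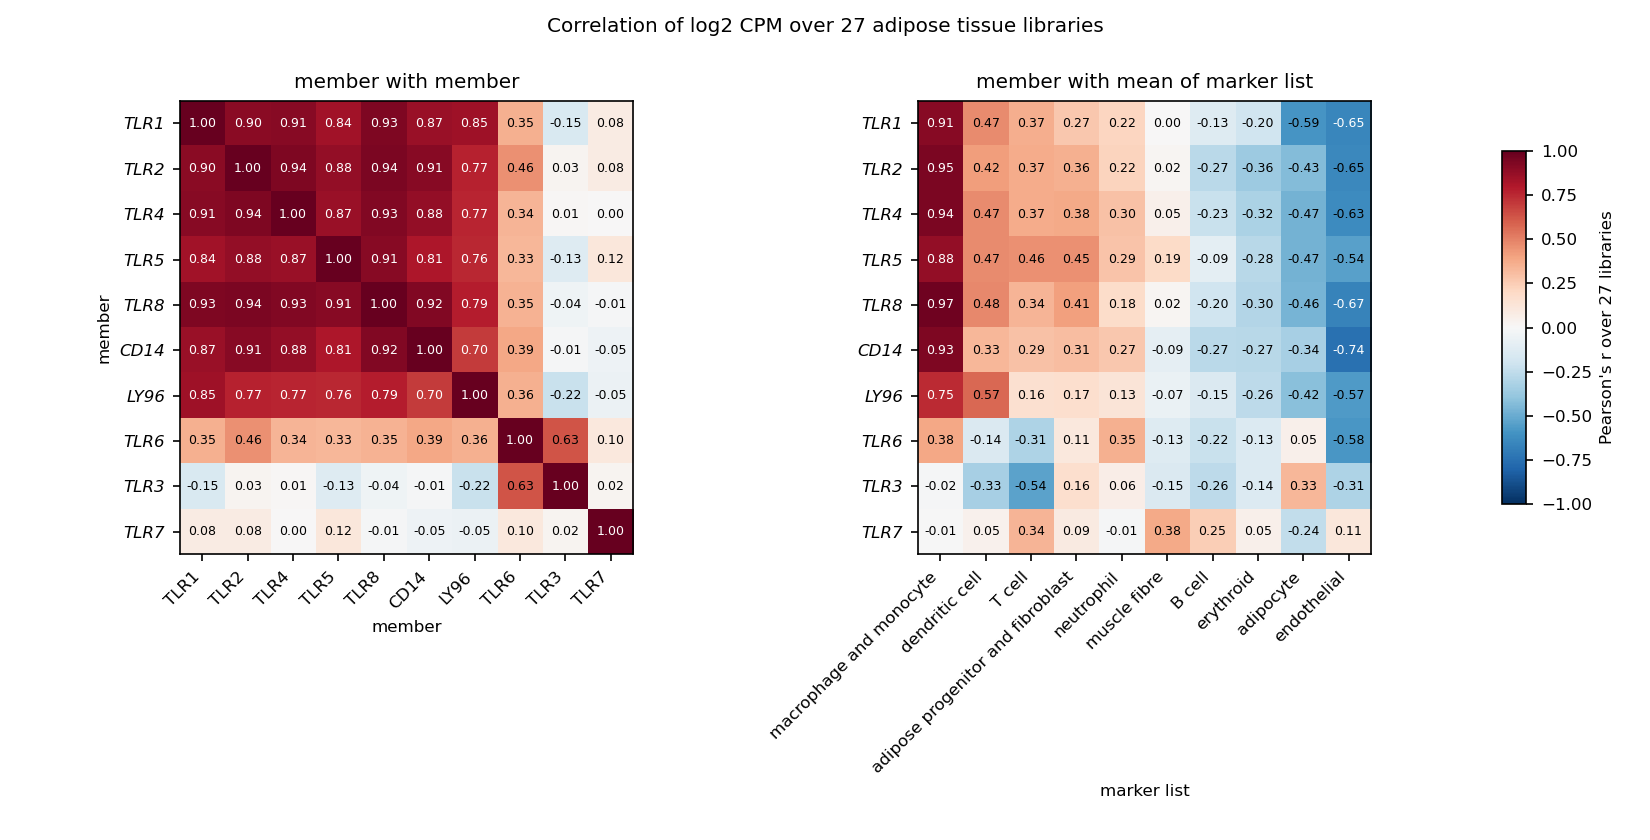
Pearson's r of log2 CPM over 27 AT libraries, between members (left) and between each member and the mean log2 CPM of lists of cell type markers (right), with red for positive and blue for negative values. The 7 members at the top have r between 0.75 and 0.97 with the macrophage and monocyte list, while TLR3 and TLR7 have -0.02 and -0.01.

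Other cell types were less closely matched. Against the mean of the endothelial markers the 7 members had r from -0.74 (CD14) to -0.54 (TLR5), against the adipocyte markers from -0.59 (TLR1) to -0.34 (CD14), against the neutrophil markers from 0.13 (LY96) to 0.29 (TLR4), and against the dendritic cell markers from 0.33 (CD14) to 0.57 (LY96). TLR3 had its largest r in size with the T cell markers (-0.54), and 0.33 with the adipocyte markers. Of 7 neutrophil markers 4 had a higher and 3 a lower estimate post-treatment (median 0.01), and CXCR2 was DE and lower (-0.50, adjusted p = 0.0422), and among the adipocyte markers LEP (-1.93, adjusted p = 0.00263) and PLIN1 (-0.62, adjusted p = 0.0383) were lower. CD8A of the T cell list (0.51, adjusted p = 0.0213) and COL1A1 of the fibroblast list (1.02, adjusted p = 0.0285) were higher, SLC4A1 of the erythroid list was lower (-2.14, adjusted p = 0.0218), and none of the dendritic cell, B cell, endothelial, muscle fibre or skin markers was DE or reached an unadjusted p under 0.05 in edgeR's test. By washout, 3 of the 4 erythroid markers (ALAS2, SLC4A1 and HBB) were DE and higher than post-treatment. The sum of all 4 had a median of 2677 CPM pre-treatment (327 to 10554 CPM), 852 CPM post-treatment and 5108 CPM at washout.

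The change of a member within an animal was then set against the change in the mean log2 CPM of the 14 macrophage markers, from pre- to post-treatment in 9 animals. The marker change ran from -0.60 in animal 20456 to 2.65 in animal 20275, with animal 22130 second at 2.19. Pearson's r was 0.97 for CD14 (Spearman's rho 0.95), 0.96 for TLR4 (0.95), 0.95 for TLR8 (0.95), 0.94 for TLR2 (0.90) and 0.92 for TLR1 (0.87). For these 5 genes the exact two-sided permutation p over pairings, adjusted over the 10 members, was at most 9.53e-04 for r and at most 0.00751 for rho. TLR5 had r = 0.73 and LY96 r = 0.72 (adjusted exact permutation p = 0.0309 for each), while their rho of 0.62 and 0.60 did not pass (adjusted exact permutation p = 0.121 for each).

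TLR3 had the opposite sign, with r = -0.84 (adjusted exact permutation p = 0.00919) and rho = -0.90 (adjusted exact permutation p = 0.00406). Animal 20275, with the greatest increase in macrophage markers, had the greatest decrease in TLR3. TLR6 (r = -0.32, rho = -0.22) and TLR7 (r = 0.17, rho = -0.07) did not pass, with adjusted exact permutation p of 0.442 and 0.649 for r. Without the 2 animals farthest from the median marker change, r was 0.94 for CD14, 0.93 for TLR4, 0.92 for TLR8, 0.85 for TLR2, 0.71 for TLR1, -0.66 for TLR3, 0.51 for TLR5 and 0.31 for LY96. In these 7 animals CD14, TLR4 and TLR8 passed (adjusted exact permutation p of at most 0.0172), while TLR2 (0.0635), TLR1 (0.136), TLR3 (0.186), TLR5 (0.348) and LY96 (0.621) did not, so these 5 calls were not kept without the 2 animals, at the smaller n. In the 6 animals with both libraries in the last identifier series, which include animal 20275 and not animal 22130, r was 0.99 for CD14, 0.98 for TLR8, 0.97 for TLR5, 0.96 for TLR2 and TLR4 and 0.89 for TLR1 (adjusted exact permutation p of 0.0463 or lower), while rho passed for CD14, TLR8 and TLR5 (adjusted exact permutation p = 0.00926 for each). In the same 6 animals r was -0.70 for TLR3 and 0.75 for LY96, neither of which passed (adjusted exact permutation p = 0.142 for both). The other series had too few such animals for a value. Member and marker are read from the same libraries, and CPM are shares of a library.

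**Figure D4:**
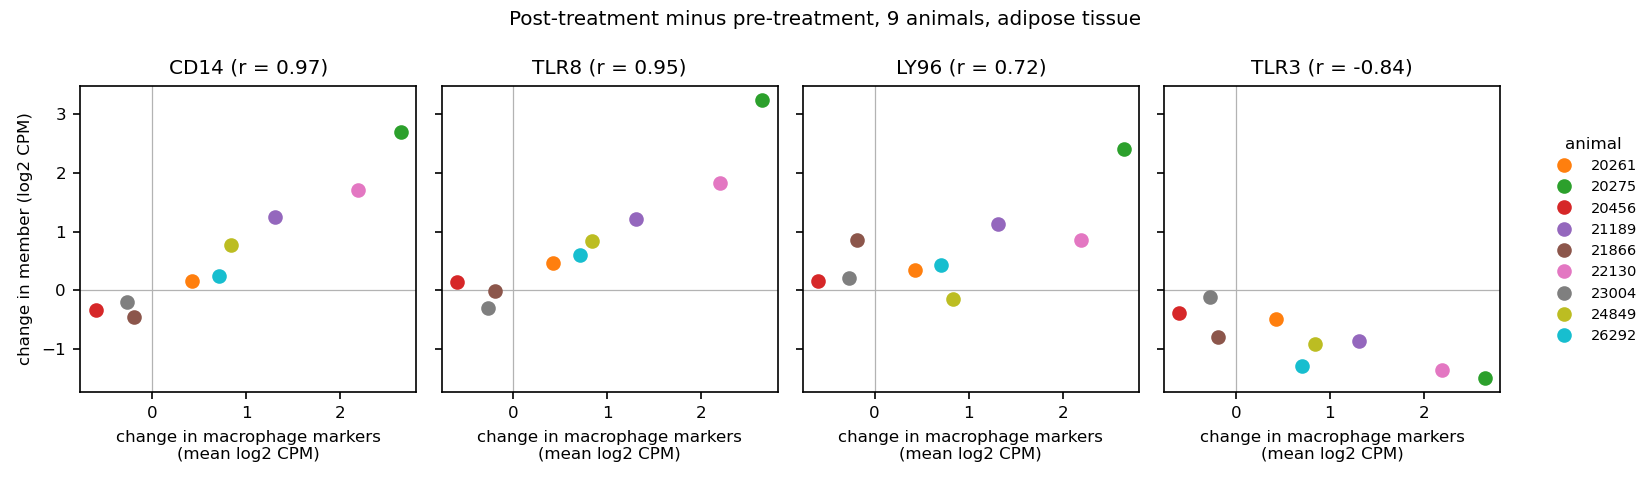
Change of CD14, TLR8, LY96 and TLR3 from pre- to post-treatment in AT (log2 CPM) against the change in the mean log2 CPM of 14 macrophage markers, with 1 point per animal (n = 9). CD14 and TLR8 lie close to a rising line, LY96 is scattered except for animal 20275, and TLR3 declines, with every point below 0.

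Of 64 tested genes in 6 lists of the pathway around the receptors, 6 (9.38%) were DE post-treatment in AT, against 15.5% of all genes. Of the 16 tested adaptors and proximal kinases, among them MYD88, the adaptor of all these receptors but TLR3, and TICAM1, the adaptor of TLR3, 1 was DE: TAB3, a partner of the kinase TAK1, was lower (-0.35, adjusted p = 0.0367). MYD88 (0.04, adjusted p = 0.834) and TICAM1 (0.22, adjusted p = 0.335) were not. Of 8 transcription factors, NFKB1 (0.30, adjusted p = 0.0108) and IRF5 (0.78, adjusted p = 0.0444) were DE and higher. Of 10 genes listed as regulators of the pathway, PELI1 was higher (0.41, adjusted p = 0.0199) and TNIP1 lower (-0.45, adjusted p = 0.0270). Of 10 tested cytokines and inflammatory products, IL10, an anti-inflammatory cytokine, was the DE gene (1.03, adjusted p = 0.0311).

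None of 11 tested chaperones, accessory receptors and further TLRs (UNC93B1, CNPY3, LY86 and others) was DE post-treatment in edgeR's test. Nor was any of 9 sensors of double-stranded RNA and other nucleic acids (IFIH1, DDX58 and others). In the same test 6 of the 11 and 3 of the 9 had an unadjusted p under 0.05, against 4581 of all 13367 genes. From post-treatment to washout 23 of the 64 genes (35.9%) were DE, against 35.4% of all genes. The counts were 4 lower of the 11 chaperones and accessory receptors, 2 higher and 3 lower of the 16 adaptors, and 2 lower of the 8 transcription factors. They were 1 higher and 5 lower of the 10 listed regulators, 1 higher and 2 lower of the 10 cytokines, and 2 higher and 1 lower of the 9 sensors. LY86, which binds the TLR4-like receptor CD180, had the widest decrease among the first of these lists (-2.38, adjusted p = 0.00367), and CD180 was lower too (-2.09, adjusted p = 0.00974). The median log2 fold changes of these 6 lists lay between 0.12 and 0.29 post-treatment and between -0.40 and -0.08 from post-treatment to washout.

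In SM none of the 10 members was DE in any comparison, against 0%, 0.19% and 0.0634% of 12617 genes. None reached an unadjusted p under 0.05 in edgeR's test, against 410, 2181 and 1691 of all genes. DESeq2 and limma gave 0 DE members as well. Levels in SM were low for the endosomal receptors: TLR3 had 1 to 27 counts per library (0.0689 to 1.33 CPM), TLR7 0 to 17 counts and TLR8 0 to 44 counts. TLR7 had no count in 5 SM libraries and TLR8 none in 2, which at the limit of 3 counts allows levels of up to 0.232 CPM. TLR3 had the lowest p, at a log2 fold change of 1.02 at washout compared to pre-treatment (95% confidence interval -0.04 to 2.08, adjusted p = 0.393), with 5 of 6 animals higher. The exception, animal 24849, had 1.33 CPM pre-treatment where the other 5 animals had at most 0.186 CPM, and without this animal the change was 2.15 (adjusted p = 0.0924).

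CD14 and TLR4 spread widely between SM biopsies of 1 time. CD14 lay at 3.18, 8.93 and 28.1 CPM (lowest, median, highest) pre-treatment, at 1.73, 8.44 and 27.5 CPM post-treatment and at 3.33, 4.82 and 38.2 CPM at washout. Animal 24849 was the highest in the first 2 of these groups and the lowest in the last, where animal 22130 stood alone. TLR4 was highest in the pre-treatment library of animal 24849 (8.30 CPM), the post-treatment library of animal 21189 (16.3 CPM) and the washout library of animal 22130 (11.9 CPM). The summed macrophage markers were highest in the same 3 libraries, at 210 CPM (from 35.3 CPM in the lowest pre-treatment library), 243 CPM (from 22.9 CPM) and 375 CPM (from 33.2 CPM). So were the summed markers of adipose progenitors and fibroblasts, at 2822, 15280 and 2490 CPM, where the group medians were 552, 1519 and 449 CPM. The part of other cell types in the SM values was not tested.

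The tissues were compared in 1 fit of all 48 libraries over 12322 genes. AT was higher than SM for 9 members pre-treatment, 9 post-treatment and 10 at washout, against 41.2%, 40.8% and 42.3% of all genes called higher in AT. Pre-treatment the differences ran from 4.62-fold for TLR6 to 46.8-fold for TLR3, without TLR7 (2.41-fold, adjusted p = 0.0698). TLR3 stood 21.9-fold higher in AT post-treatment and 10.6-fold higher at washout. TLR8 stood 14.5-fold higher in AT pre-treatment, 27.9-fold post-treatment and 5.45-fold at washout, the estimate being highest at the end of treatment. TLR6 had a narrow range over the 3 times, from 3.24-fold to 4.62-fold.

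**Figure D5:**
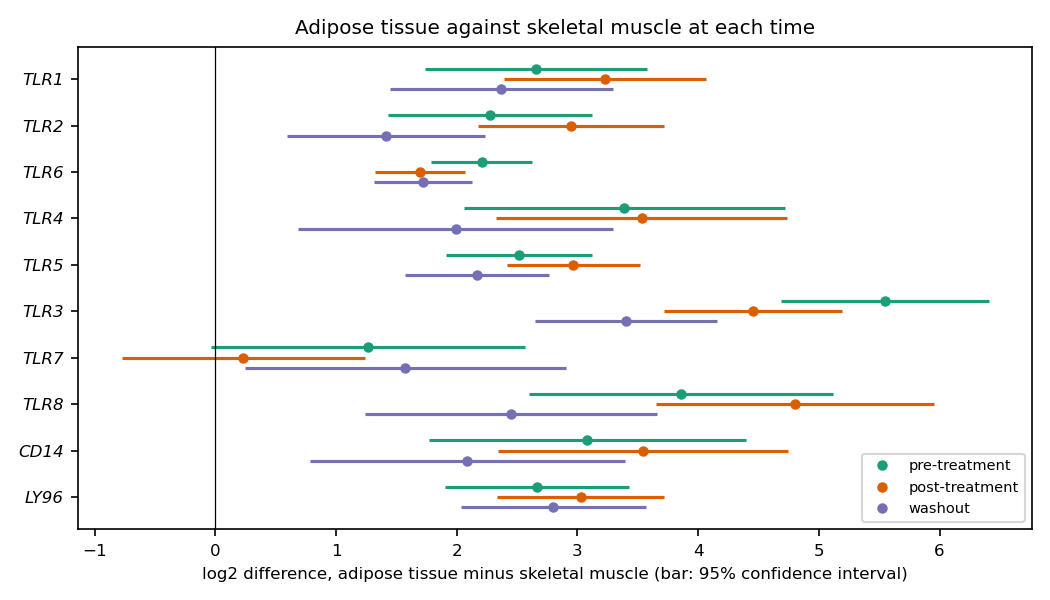
Log2 difference of AT minus SM for the 10 members at each of the 3 times, as points with 95% confidence intervals. All points lie right of 0, TLR3 steps down from 5.55 to 4.45 and 3.40, and the intervals of TLR7 pre-treatment and post-treatment include 0.

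Whether a change differed between the tissues was tested as an interaction. None of the members differed from pre- to post-treatment, against 0.0487% of all genes (all of them lower in AT), with TLR3 at an unadjusted p under 0.05 (AT minus SM -1.03, 95% confidence interval -2.04 to -0.02, adjusted p = 0.459). From post-treatment to washout TLR8 (AT minus SM -2.65, SE 0.79, adjusted p = 0.0155) and TLR2 (-1.70, SE 0.53, adjusted p = 0.0204) differed, against 22.7% of all genes, 10.8% with the lower change in AT. Neither call held without animal 22130 (TLR8 -1.74, adjusted p = 0.123, and TLR2 -1.43, adjusted p = 0.0750), the TLR2 call was also lost without animal 20275 (-1.44, adjusted p = 0.0556), and without animal 24849 the count rose to 4. From pre-treatment to washout TLR3 differed (-2.11, SE 0.49, adjusted p = 0.00231), against 17.5% of all genes, 8.38% with the lower change in AT. The TLR3 difference held without each of the 10 animals, and was -2.94 (adjusted p = 2.18e-05) without the SM pre-treatment library of animal 24849. It was lost without the animal term in the model (-1.51, adjusted p = 0.0626). In the fit of SM alone, TLR3 changed by 1.02 and was not DE (adjusted p = 0.393), with 1 to 27 counts per pre-treatment library.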

How the data were processed

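RNA was sequenced as 50-nucleotide paired-end stranded reads. The authors mapped them to MacaM by STAR, and the deposited values are raw counts per gene under human homolog names, without normalization (FastQC and SAMtools are also in the submitters' processing notes). The counting tool and gene annotation are not given in the sources used here, so overlapping or near-identical genes may share reads. Counts were used as deposited, and 70 repeat rows of a gene were dropped. Of 51 labelled samples, 3 SM samples were not analysed here. Groups came from the labels, and replicates are separate animals.

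A gene was tested in a tissue if 10% or more of its libraries reached 0.5 CPM, with edgeR 4.0.16 (R 4.3.3) by TMM and robust quasi-likelihood F tests, 1 fit per tissue, and p-values were adjusted by Benjamini-Hochberg over the tissue's tested genes. Log2 CPM used a prior count of 2. AT against SM and the interactions were fitted over both tissues, the latter with animal within tissue. Because the raw counts took a count model, limma 3.58.1 (voom with quality weights, the test of the study) and DESeq2 1.42.0 were alternatives. The relation to macrophage markers used exact permutation over pairings (NumPy 2.4.6, Python 3.11.15). Only the fits within each tissue, for post-treatment against pre-treatment, were run on simulated counts, which held no differences between animals. The washout comparisons and the fits over both tissues were not.

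Libraries are paired by animal from the labels. After removal of time means, 25 same-animal AT pairs had a median r of 0.352, against -0.0354 for 217 others, and 19 SM pairs 0.279. At 14455195 to 23940980 counts per library, precision is lowest for TLR7, and for TLR3 and TLR8 in SM, where libraries held few counts. Counting error and the spread between animals were not separated. Intervals from 0 counts cover counting error only.

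All members were named. Of each list, counts of DE genes and up to 3 DE genes with the lowest adjusted p post-treatment were named, and for each member the 2 genes of highest r. MYD88, TICAM1, UNC93B1, CNPY3, LY86, CD180, IFIH1, DDX58, ALAS2, HBB and TLR10 were named after their values were seen. The members and lists were chosen with earlier results of these data known. Alternatives included other tools, scaling and filters, no animal term, the identifier series as a covariate, and leaving out single animals or libraries. The analyses of the last identifier series, without the AT post-treatment library of animal 20275, without the SM pre-treatment library of animal 24849, of the tissue differences without each animal, and of member correlations with time means removed were chosen after seeing the data.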

Additional observations from a re-analysis of the deposited data

Results flagged for a closer look

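Libraries were examined in 60 groups (10 members, 2 tissues, 3 times). In 8 groups the gap of 1 library to its nearest neighbour was a larger part of the group's range than Dixon's 95% limit. Chance flags about 1 in 20 groups only where values are normal and groups are independent. Here CPM were not logged and the members share libraries, so the count cannot be set against that rate. In AT post-treatment the flagged libraries were those of animal 20275 for TLR1 (74.3 CPM, the next library at 35.6 CPM) and for TLR8 (78.8 CPM, the next at 41.97 CPM). The same animal stood out pre-treatment for TLR7 (1.16 CPM, the next at 0.684 CPM). In SM they were animal 24849 pre-treatment for TLR3 (1.33 CPM, the next at 0.186 CPM), animal 21189 post-treatment for TLR4 (16.3 CPM, the next at 7.81 CPM) and TLR5 (2.86 CPM, the next at 1.61 CPM), and animal 22130 at washout for CD14 (38.2 CPM, the next at 9.57 CPM) and TLR5 (3.70 CPM, the next at 1.49 CPM). Within their groups, these AT post-treatment and SM libraries also had the highest sums of macrophage markers. Their part in these values was not tested.

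The change over time differed between AT and SM by an interaction test for TLR2 (-1.70) and TLR8 (-2.65) from post-treatment to washout and for TLR3 (-2.11) from pre-treatment to washout, each as the log2 change in AT minus that in SM. These were 2 of 10 members against 22.7% of all genes and 1 of 10 against 17.5%. The TLR2 and TLR8 calls were lost without animal 22130, and the TLR3 call without the animal term in the model.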

How the results depend on the processing

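TLR3 was DE and lower in AT post-treatment, and at washout compared to pre-treatment, in all 23 alternatives of each. At washout compared to post-treatment, 6 to 8 members were DE in every alternative. The counts of members in this section are not set against the share of all genes DE in the same alternative. A higher or lower count is thus no result about the members. Post-treatment, the count of 3 became 7 with DESeq2, 5 without TMM factors, and 1 (TLR3) with only the 2 time points, without the pre-treatment library of animal 20275 or in the last identifier series alone (chosen after seeing the data). It ranged from 1 to 6 without each animal, at 1 without animals 20275, 21189, 21866 or 22130, at 5 without 20456 and at 6 without 23004. At washout compared to pre-treatment, the count of 2 became 6 with limma or with only the 2 time points, 5 with the identifier series as a covariate, and 1 without TMM factors or in the last series, and ranged from 1 to 2 without each animal, at 1 without 20261, 20456, 21189, 21866 or 26292. With the pairing by animal left out of the model (no replicate block), it was 1, the count of AT minus SM differences from pre-treatment to washout was 0 (TLR3 -1.51, adjusted p = 0.0626), and LY96 was lost post-treatment (adjusted p = 0.0650) while TLR1 passed (0.96, adjusted p = 0.0335). AT minus SM differences from post-treatment to washout numbered 1 with limma (TLR2) or without TMM factors (TLR8), and 0 to 4 without each animal. Signs turned only for values near 0. TLR3 from post-treatment to washout became 0.016 without TMM factors, 0.059 without the animal term and 0.067 without the washout library of animal 23004, and ran from -0.21 to 0.12 (without 23004) over single animals left out. TLR7 post-treatment became 0.092 without the pre-treatment library of 20275 and ran from -0.31 to 0.031 (without 20261), and at washout compared to pre-treatment from -0.091 (without 26292) to 0.50. In SM, TLR3 post-treatment ran from -0.16 to 0.94 without each animal and was -0.068 without the animal term. The cause was not tested. The SM counts stayed at 0. The 8 members related to macrophage markers by Pearson's r, TLR3 inversely, stayed 8 with the other score and the other prior count. Both of these alternatives used the same markers and animals. By rho TLR5 and LY96 did not pass. Without the 2 animals farthest from the median marker change, TLR1, TLR2, TLR3, TLR5 and LY96 did not pass by r. Counts were few for TLR7 in AT and for TLR3, TLR7 and TLR8 in SM.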
